A study of Mus musculus with 2 samples.

Results

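The Mir221 and Mir222 cluster is a pair of microRNA genes on mouse chromosome X. Members were the rows of the deposited tables whose Ensembl identifier carries the symbol Mir221 (ENSMUSG00000065422.1) or Mir222 (ENSMUSG00000065471.1) in the GENCODE M21 annotation, and both were found, 2 of 1973 microRNA genes in all. Small RNA sequencing with inserts under 30 nucleotides had been done on limb tissue of B6NCrl mouse embryos at day 14.5 of gestation, when cartilage, muscle, vessels and skin of the limb are all being laid down. There was 1 group of 2 samples, replicates 1 and 2, with no treatment, no genetic change and no control group, so the design holds no contrast between conditions. The labels give 4 limbs of 1 pup for each sample, and also sex as pooled. Both samples carry the same donor label and differ in collection day, so p-values measure only how far these 2 samples differ, which may be technical. Replicate 1 held 4608816 reads counted on the own strand of microRNA genes and replicate 2 held 4144385. Levels are given in CPM, a gene's share of these own-strand counts times 1000000.

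MicroRNAs are cut from a hairpin precursor and guide the silencing complex to mRNAs, mainly through the seed, bases 2 to 8 of the mature strand. miR-221 and miR-222 are cut from a shared primary transcript and are best known for repressing Cdkn1b, an inhibitor of the cell cycle, and Kit, the receptor of stem cell factor. They are abundant in endothelium and vascular smooth muscle, decline as erythroid precursors mature and as myoblasts differentiate, and have been studied in cartilage formation from limb mesenchyme.

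The mature sequences show why the pair is treated as a seed family. They are taken from RefSeq (GRCm38.p6), which matched both members by symbol, and are written 5′ to 3′ with the seed in capitals.
miR-221-3p: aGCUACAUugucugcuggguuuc
miR-222-3p: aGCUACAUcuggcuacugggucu
miR-1928: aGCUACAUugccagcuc
miR-221-5p: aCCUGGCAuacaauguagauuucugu
The first 8 bases of miR-221-3p and miR-222-3p were identical, and without gaps 11 of their 23 positions matched. Their longest shared stretch was 8 bases. Of 1738 mature mouse microRNAs in the reference, 3 had this seed: the members and miR-1928, from chromosome 1. The seed of miR-221-5p, the strand from the other arm of the Mir221 hairpin, was found in no other mature microRNA of the reference.

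The hairpins are shown because counts were given per gene, so that each value below covers both arms of a hairpin. Capitals mark the 3p strand.
Mir221: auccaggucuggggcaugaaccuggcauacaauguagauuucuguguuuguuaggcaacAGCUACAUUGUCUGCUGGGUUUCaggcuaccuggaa
Mir222: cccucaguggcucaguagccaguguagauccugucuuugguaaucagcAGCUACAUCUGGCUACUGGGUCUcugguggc
In GRCm38 coordinates the 95-nucleotide Mir221 hairpin lies on the minus strand of chromosome X from 19146294 to 19146388, and the 79-nucleotide Mir222 hairpin from 19146893 to 19146971. Mir222 is therefore the upstream gene, 504 nucleotides from Mir221, in a locus of 678 nucleotides. No other annotated gene overlapped this locus in GENCODE M21, so no exon or intron of another gene is annotated at either hairpin. The nearest gene upstream was Gm14636, a noncoding processed transcript on the same strand whose annotated end lay 10009 nucleotides away, and the nearest downstream was the pseudogene Gm5383. The nearest counted microRNA genes on either side, Gm24824 and Gm22464, had no count in either library. The nearest with any count were Mir1198, 11.3 Mb downstream, and Mir3110, 19.1 Mb upstream.

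The hairpins were compared with those of the other genes in the tables that have an M21 sequence, 1894 of 1973 with the members. Reads with several alignments were given to no gene, so genes with near-identical copies were undercounted. The longest stretch that Mir221 shared with another of 1894 microRNA hairpins was 12 nucleotides, with Mir6368, and for Mir222 it was also 12, with Mir1251. The members shared no more than 9 nucleotides with each other, although their seeds are the same. These longest stretches were searched in the direction of transcription only. On either strand, 876 of the 1894 genes shared a stretch of at least 22 nucleotides with another, and neither member did. Copies elsewhere in the genome were not searched for.

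Both members stood at a middling level among the genes with at least 10 counts in each library. Mir221 gave more reads than Mir222 in both libraries. Mir221 had 996 counts in replicate 1 and 850 in replicate 2. This was 216 CPM (95% exact Poisson interval 203 to 230) and 205 CPM (192 to 219), or 211 ± 7.79 CPM (SD, n = 2). Mir222 had 524 and 490 counts. It reached 114 CPM (104 to 124) in replicate 1 and 118 CPM (108 to 129) in replicate 2, or 116 ± 3.21 CPM. The ranges of the members did not overlap, and for each member the intervals of the 2 libraries did. Intervals cover counting error only. No molecular identifiers are recorded in the tables, so repeated reads of 1 molecule cannot be told apart and the intervals may be too narrow.

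**Figure D1:**
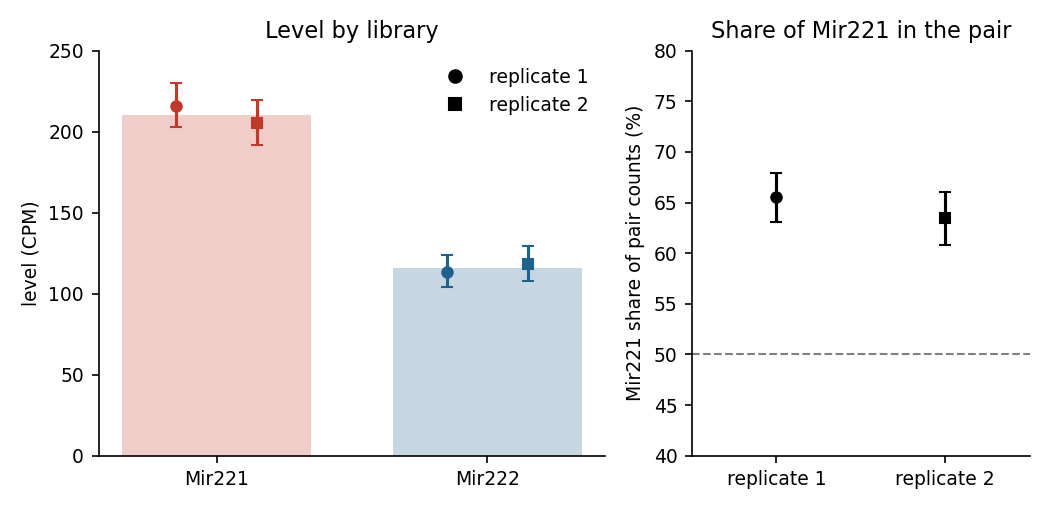
Left, level of Mir221 and Mir222 in CPM, with bars for the mean of the 2 libraries, points for each library and error bars for the 95% exact Poisson interval of its count. Right, share of Mir221 in the summed counts of the pair in percent, with 95% exact binomial intervals and a dashed line at 50; both libraries lie above the line, at 65.5% and 63.4%.

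The members together made up 330 CPM in replicate 1 and 323 CPM in replicate 2, or 327 ± 4.58 CPM. With own-strand totals, the SD of the sum was smaller than that of Mir221 alone. This order turned with TMM or DESeq2 scaling, so it does not show a steadier sum. Mir1928, the other gene with this seed, had no count in either library. The level that 3 counts would give, 0.651 CPM in replicate 1 or 0.724 in replicate 2, is the limit set by depth. The mature form miR-1928 is 17 nucleotides long. Whether reads of that length were lost to several alignments was not tested. Of the 3 genes with this seed, the members thus gave all counts seen at this depth. Neither member had a read on the opposite strand in either library, where 3 counts again mark the limit. Among all genes, 28 had opposite-strand reads in both libraries.

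Mir221 gave 65.5% of the pair's counts in replicate 1 (95% exact binomial interval 63.1 to 67.9) and 63.4% in replicate 2 (60.8 to 66.0). Both intervals lay above an equal split, and they overlapped each other. The ratio of Mir222 to Mir221 was 0.526 in replicate 1 and 0.576 in replicate 2, or 0.551 ± 0.0356. This ratio needs no library total. Fisher's exact test of the counts did not separate the libraries (two-sided p = 0.256, odds ratio 1.10). Both 3p strands are 23 nucleotides long. How evenly the 2 microRNAs yield reads was not measured, so the ratio compares reads, not molecules in the tissue.

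Among the 333 microRNA genes with at least 10 counts in each library, Mir221 held rank 157 by mean CPM and Mir222 rank 187. Mir221 thus stood at 1.19 times the median detected gene and Mir222 at 0.657 times. These places depend on the cut of 10 counts, as 626 genes had any count in replicate 1 and 617 in replicate 2. In the single libraries Mir221 held ranks 157 and 159, and Mir222 ranks 187 and 184. Of the 332 other genes, 154 were above Mir221 in both libraries and 172 below it in both, while 6 changed sides. For Mir222, 182 were above in both, 145 below in both and 5 changed sides. Few genes therefore lay so near to a member that the libraries disagreed on the order.

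**Figure D2:**
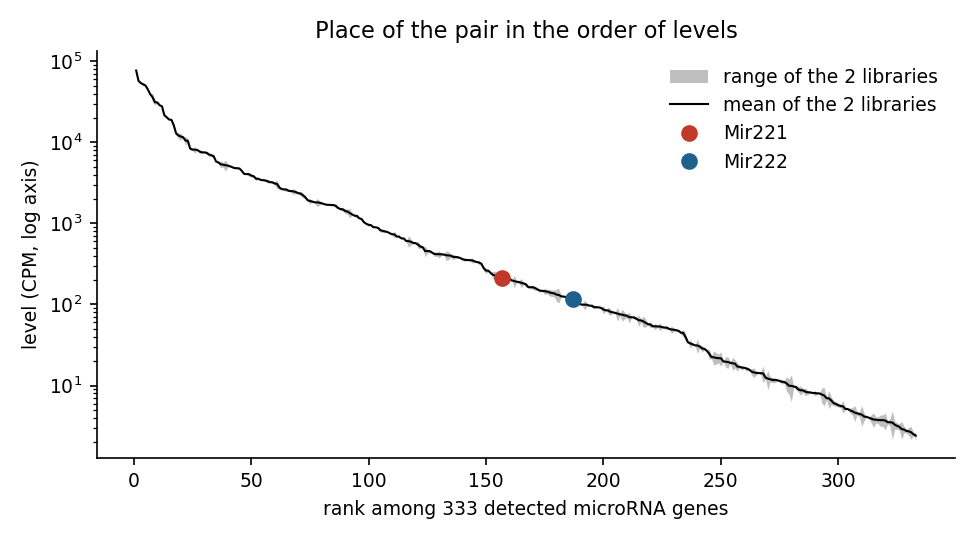
Mean level in CPM on a log axis against rank for the 333 detected microRNA genes, with the range of the 2 libraries in grey and the members as coloured points. Mir221 at rank 157 and Mir222 at rank 187 lie on either side of the middle of the order.

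The genes most like each member were found by the distance between log2 CPM values over the 2 libraries, a measure of level and of nothing else. Nearest to Mir221 was Mir410, a microRNA of the imprinted Dlk1-Dio3 locus, at a distance of 0.043, with 214 CPM in replicate 1 and 200 CPM in replicate 2. Mir32 (220 and 222 CPM) and Mir330 (201 and 212 CPM) followed at 0.114 and 0.116. Mir410 was below Mir221 in both libraries, but its mean of 207 CPM lay within 1 SD of that of Mir221. Mir32 was above it in both, at 221 ± 0.901 CPM, and Mir330 changed sides. Nearest to Mir222 was Mirlet7c-1, a let-7 gene, at 0.131, with 121 and 126 CPM. This gene shares a stretch with another, so its own count is a lower limit. Mir675, which lies in the imprinted gene H19, and Mir345 followed at 0.158 and 0.159. Mir345 was below Mir222 in replicate 1 with 103 CPM and above it in replicate 2 with 125 CPM.

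The libraries were then compared gene by gene to see how far the members varied between the samples. Mir221 was lower in replicate 2 by a log2 ratio of -0.08 (95% interval -0.21 to 0.06) and Mir222 higher by 0.06 (-0.12 to 0.24). Neither was called by the exact binomial test (unadjusted p = 0.263 and 0.550, Benjamini-Hochberg adjusted p = 0.473 and 0.770 over 407 genes). So 0 of 2 members passed. The test called 35.6% of the 407 tested genes at an adjusted p under 0.05, and 0.983% with a 2-fold change besides. At that rate, 0 of 2 does not set the members apart from the other genes. This test takes counting noise as its only error, which separate samples exceed at this depth, and it says nothing about conditions. Both intervals held 0, so the directions of the members were not resolved. With TMM or DESeq2 scaling the sign of Mir222 turned (-0.01 and -0.02). Mir221 then had unadjusted p-values of 0.0427 and 0.0286, with adjusted p of 0.115 and 0.0803 by the same exact test.

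For genes of their level, the difference of Mir222 was on the small side. That of Mir221 was so only when scaled to own-strand or either-strand totals. Among 104 tested genes of 50 to 500 CPM, the median size of the log2 ratio was 0.13, and 40.4% were called. Of these 104 genes, 29 had a smaller log2 ratio in size than Mir221, and 16 a smaller one than Mir222. With TMM scaling these counts were 46 and 6, with DESeq2 scaling 49 and 12, and with the total of all reads 45 and 1. In each of these settings Mir221 lay near the middle. This is a description of 2 libraries.

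**Figure D3:**
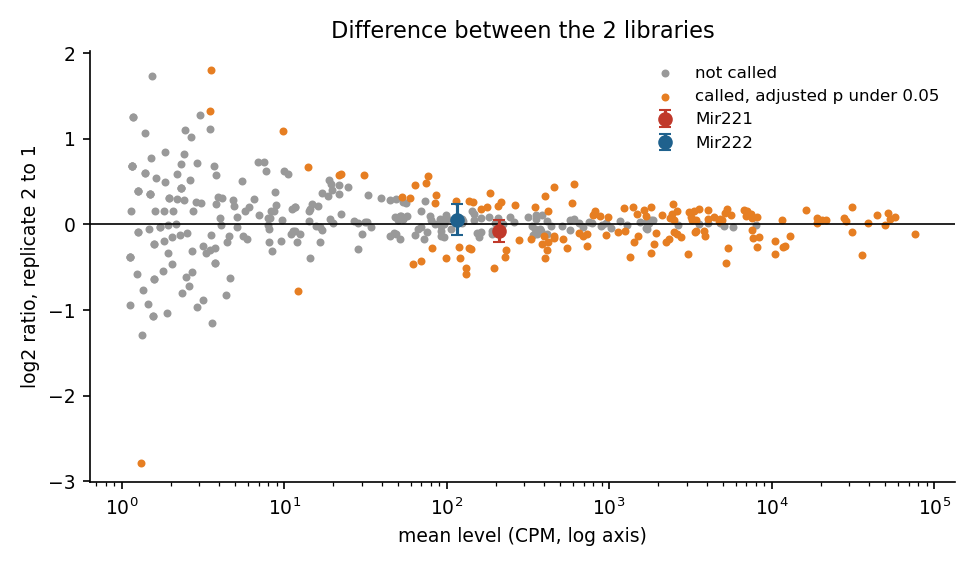
Log2 ratio of replicate 2 to replicate 1 against mean level in CPM on a log axis for the 407 tested genes, with called genes in orange and the members as coloured points with 95% intervals. The intervals of Mir221 and Mir222 both cross 0.

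The pair was next set among the other microRNA genes of chromosome X. Of 120 such genes in the tables, 39 were detected, and Mir221 and Mir222 held ranks 21 and 22 among them. The X-linked genes held 9.07% of all counts in replicate 1 and 9.31% in replicate 2, of which the pair gave 0.364% and 0.347%. Joined across gaps of at most 10 kb on a strand, the detected genes formed 20 units, 7 clusters and 13 single genes, and the pair was 10th by summed CPM. Units with genes that have near-identical copies were undercounted, so the place of the pair may be overstated. The highest unit, the 7 genes from Mir450b to Mir322, which include members of the miR-15/16 seed family, summed to 66395 ± 1521 CPM.

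Just above the pair stood Mir223, a microRNA of myeloid cells, with 346 and 362 CPM against 330 and 323 CPM for the pair. Mir223 was above in both libraries, with 1596 counts against 1520 in replicate 1 and 1500 against 1340 in replicate 2. Just below stood the 6 genes from Mir363 to Mir106a, relatives of the proliferation-linked Mir17 cluster. They summed to 237 CPM in replicate 1 and 330 CPM in replicate 2, so the order of that cluster and the pair was not resolved. The log2 ratio of the libraries was 0.48 for that cluster, 0.41 for Mir421 and Mir374b together, -0.16 for the 5 genes from Mir500 to Mir532 and -0.03 for the sum of the pair. These ratios use own-strand totals. With TMM or DESeq2 scaling, or with the total of all reads, each shifts downward, so that of the pair is larger in size. These differences between units were not tested.

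**Figure D4:**
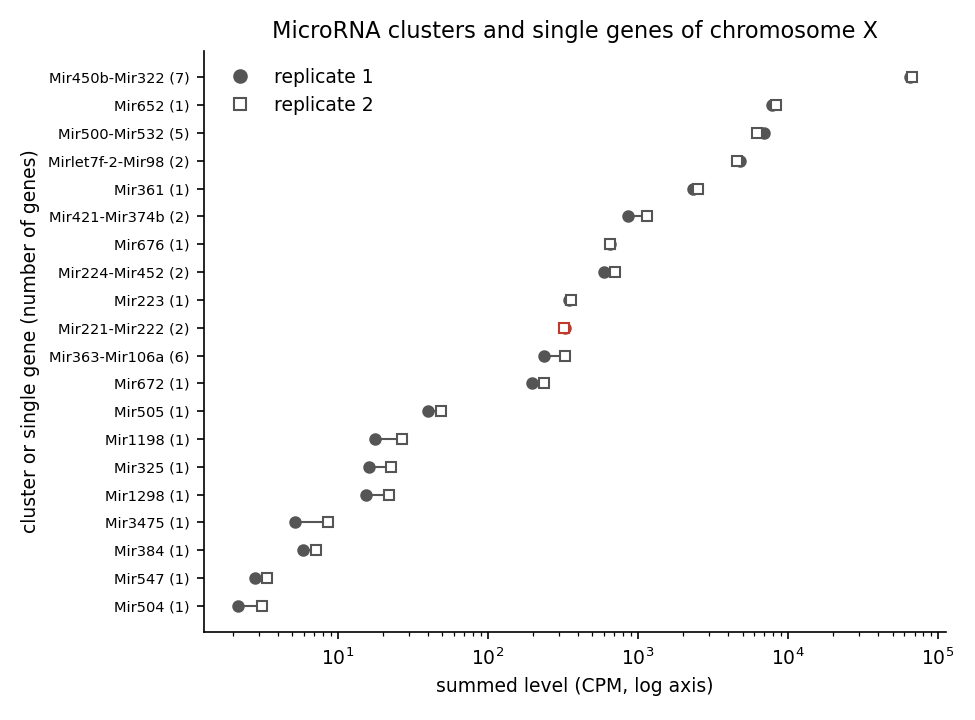
Summed level in CPM on a log axis of the 20 clusters and single genes of chromosome X, with the number of detected genes in brackets, filled circles for replicate 1 and open squares for replicate 2. The pair, in red, has nearly coinciding points at 330 and 323 CPM, whereas the points of the next unit below lie at 237 and 330 CPM.

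Genes within 10 kb of each other on the same strand often differed in level, and the members were among the closer pairs. Whether the genes of the other pairs share a primary transcript was not checked. The higher member had 1.90 times the counts of the lower in replicate 1 and 1.73 times in replicate 2, or 1.82 times by mean CPM. Of 27 clusters with exactly 2 detected genes, 6 had a smaller fold and 20 a larger one, and the median fold was 10.5. The smallest was 1.29-fold between Mir192 and Mir194-2 and the largest 406-fold between Mir99a and Mirlet7c-1. Next to the members in this order were Mir15b with Mir16-2 (1.79-fold) and Mir98 with Mirlet7f-2 (2.63-fold). Mir194-2, Mir16-2, Mirlet7c-1 and Mirlet7f-2 have a stretch in common with other genes, so their counts may be too low. Among the 15 clusters with no such gene, 3 had a smaller fold, 11 a larger one, and the median was 8.36. The X-linked pair Mir374b and Mir421 had a smaller fold of 1.50.

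**Figure D5:**
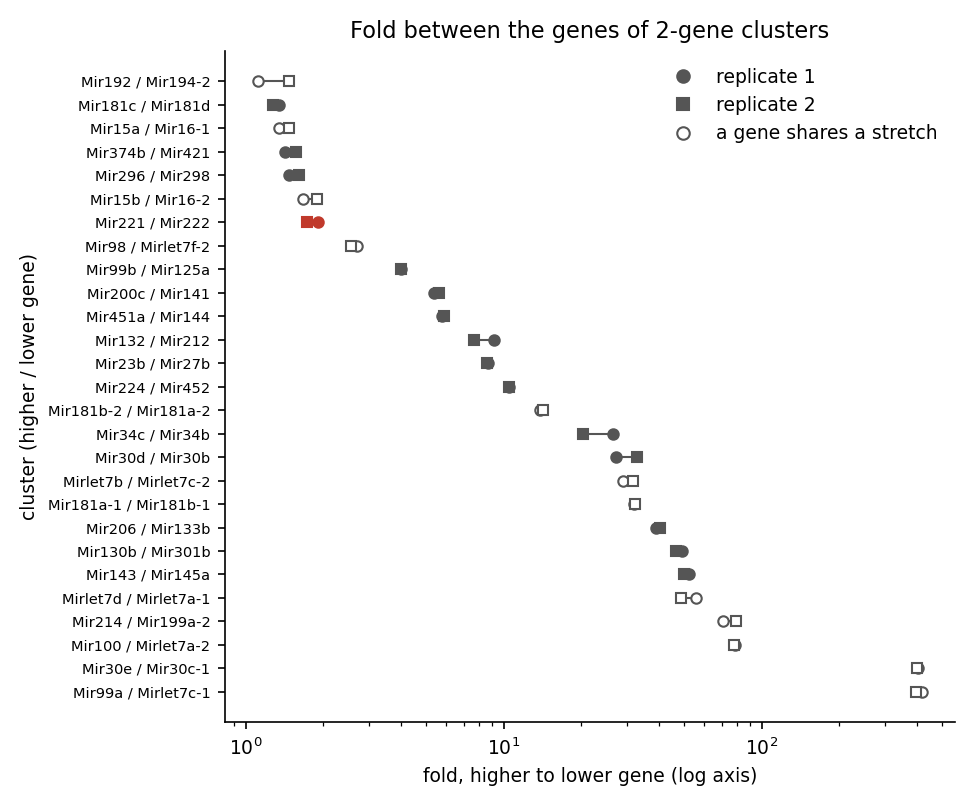
Fold of the higher over the lower gene on a log axis in the 27 clusters of 2 detected genes, with circles for replicate 1, squares for replicate 2 and open symbols where a gene shares a stretch with another. Mir221 with Mir222, in red, lies at 1.90 and 1.73, the seventh smallest fold by mean.

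Because miR-221 and miR-222 are known from vessels, blood and muscle, the pair was set beside microRNAs that mark these tissues. In bulk tissue, fewer cells of a type and less RNA per cell cannot be told apart, and no cell type was isolated here. Mir126a, a microRNA of endothelium, was 57.5 times the sum of the pair in replicate 1 and 59.6 times in replicate 2. The vessel wall and smooth muscle microRNAs Mir143 and Mir145a together were 27.2 and 25.0 times the pair. The pair was therefore well below both vascular lists in both libraries.

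The blood lists lay nearest to the pair. The erythroid genes Mir451a, Mir144 and Mir486 summed to 1.66 times the pair in replicate 1 and 1.29 times in replicate 2. The leukocyte genes Mir223, Mir155 and Mir150 summed to 1.81 and 2.03 times. Both lists were above the pair in both libraries. With own-strand totals, erythroid counts were lower in replicate 2 by a log2 ratio of -0.39, while the sum of the pair moved by -0.03. The skeletal muscle list, led by Mir206, had 3 of its 6 counted genes detected and summed to 19.5 and 14.5 times the pair, with a log2 ratio of -0.46 between the libraries. The undetected muscle genes Mir1a-1, Mir133a-1 and Mir133a-2 each share a stretch of at least 22 nucleotides with another gene, so the muscle sum is a lower limit. The part of blood or muscle content in the members' levels was not tested.

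Lists of the same kind were read for tissues of the limb and for tissues that the limb should lack. With no other tissue to compare, these lists describe the samples and do not test the label of limb. All 6 Hox-cluster microRNAs, which mark position along the body, were detected, and they summed to 198 and 211 times the pair. Both cartilage genes were detected as well, at 181 and 195 times the pair. Surface epithelium, with 7 of 7 genes detected, reached 195 and 167 times. Of 8 counted genes of liver, brain and heart, 4 were at 0 and 2 were detected, and their counted sum was 0.443 and 0.371 times the pair. All 4 genes at 0, which are brain microRNAs, share a stretch of at least 22 nucleotides with another gene, so their zeros do not show absence and the sum is a lower limit. Most of that sum was Mir208b (137 and 104 CPM), which lies in the myosin gene Myh7 of heart and slow skeletal muscle. Mir208b stood close to Mir222 in level. The other detected gene was the liver microRNA Mir122, at 6.29 CPM in replicate 1 and 13.5 CPM in replicate 2. Its log2 ratio of 1.09 was called by the exact binomial test (adjusted p = 0.00267). The source of the Mir122 and Mir208b reads was not tested.

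The seed of the pair can be read in the 3′ untranslated regions of its textbook targets. The mRNAs themselves were not measured. The motif ATGTAGC, the complement of bases 2 to 8, was searched on the transcript strand of the longest annotated 3′ region of Cdkn1b and Kit. It does not overlap itself or another motif searched. Cdkn1b held 1 match in 3439 nucleotides, and Kit held 2 in 2177. The sites are given from GENCODE M21 (GRCm38), plus strand, 5′ to 3′, with the match in capitals.
Cdkn1b, chr6:134924416-134924438: ctctaaaagcattggATGTAGCa
Kit, chr5:75654977-75654999: aatgatgggagatatATGTAGCa
Kit, chr5:75656508-75656530: tttgtaaatattgaaATGTAGCa
In each of the 3 sites the match was followed by A, the base that extends a match of this kind in the usual classification of target sites. Among the 2108 genes whose 3′ region was at least as long as that of Cdkn1b, 24.5% held the motif in a stretch of that length. For the length of Kit, 15.8% of 4792 genes held it, and 1.42% held it at least as often as Kit. A match is a description of these letters and was not tested as a site.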

How the data were processed

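The authors deposited raw read counts per gene, 1 table for each library, without normalization. The accompanying read-me texts name the mm10 genome and GENCODE annotation M4. The aligner, the counter and their settings are not given in the sources used here. The tables have no header, and the count columns were taken from their values as either strand, own strand and opposite strand. Tally rows stayed out of totals and tests. Of 9001596 and 8387546 reads, those with several alignments were 31.8% in replicate 1 and 32.6% in replicate 2.

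Names and positions came from GENCODE M21 on the same build, which matched 1894 of 1973 genes. Detection required 10 counts in each library. Libraries were compared by a two-sided exact binomial test per gene (at least 10 counts over both) with Benjamini-Hochberg adjustment. Log2 ratios had a prior count of 0.5. The test was tried on simulated data with counting noise only, so that trial does not cover further variation between separate samples. No edgeR fit was made, because a single library per side gives no residual degrees of freedom. Python 3.11.15, scipy 1.17.1, R 4.3.3, edgeR 4.0.16 (TMM) and DESeq2 1.42.0 (size factors) were used.

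Genes named by rule were the members, genes with their seed, the nearest microRNA genes on chromosome X, the 3 nearest in level to each member, marker genes, and the 2-gene clusters at the extremes or next to the pair. Other names, among them the X-linked units and the Cdkn1b and Kit sites, were chosen after values were seen. The members and lists were chosen with earlier results of these data known.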

Additional observations from a re-analysis of the deposited data

How the results depend on the processing

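TMM and DESeq2 scaling kept the mean levels of both members and of their sum within 1 SD. Each moved the 2 library totals in opposite directions by nearly the same factor, so a mean over both could hardly change. The SD of Mir221 and that of the sum were larger with either scaling than with own-strand totals. The choice of total set the level: with reads of several alignments added, Mir221 was at 128 CPM, Mir222 at 70.7 and the sum at 199, and with all reads as the total they were at 106, 58.3 and 164. With counts on either strand Mir222 was at 112 CPM and the sum at 316, and the ranks were 166 and 196. Without one replicate, Mir221 ranked 157 to 159 and Mir222 184 to 187. The log2 ratio of Mir222 turned to -0.0056 with TMM and -0.015 with DESeq2 size factors, and no member was called in any setting (adjusted p 0.0803 to 1.0). The share of called genes that were higher in replicate 2 was 55.9%, and 34.4% with TMM, 30.4% with DESeq2 and 38.3% with the total of all reads. The count of calls stayed between 131 and 155, against 145. The share of other 2-gene clusters with a smaller fold was 23.1%, and it was 26.9% with gaps up to 5 kb, 34.5% with gaps up to 2 kb and 21.4% among clusters without a shared stretch, a setting chosen after seeing the data. The library comparison could not be made without either replicate. No paired analysis was possible because there is 1 group. Depth limits a gene at 0 to below 0.651 or 0.724 CPM, and 2 samples limit every SD.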
